A study of Mus musculus with 16 samples.

Results

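Ptprk, Nkg7, Ahcyl2 and Exoc2 are 4 of 9801 genes measured above background in mouse CD4 T cells with or without Erk2. They were chosen by their genotype difference: on a probe of each gene, the level in Erk2-deficient cells minus that in WT cells was near 0 or of opposite sign before day 1 of culture, and large in all 5 pairs of arrays at day 1. The 4 genes have 6 of the 25697 probes on the array, and 4 of the 6, 1 for each gene, were among the 14509 probes above background on at least 2 of 16 arrays. Because the genotype differences chose the genes, they are given as a description, with no test. At day 1 Ptprk, Nkg7 and Ahcyl2 were higher in Erk2-deficient cells and Exoc2 was lower, so calling the 4 "genes that need Erk2 at day 1" matched the direction of Exoc2 alone.

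The CD4 T cells came from C57/BL6 mice that were either Erk2-deficient (genotype Erk2 KO) or WT, and RNA was measured on Illumina bead arrays. For each genotype there was 1 array in each of 8 conditions. These were day 0, 3 hr of Th0 culture, 3 hr of iTreg culture, day 1 of Th0, Th1 and iTreg culture, and day 1 Th0 cells given TGF for 1 hr or for 3 hr. Th0 is neutral culture, Th1 culture favours T helper 1 cells, iTreg culture favours induced regulatory T cells, and TGF is transforming growth factor beta. How Erk2 was removed and from which cells, the age and number of the animals, and whether arrays came from separate animals are not stated in the labels. No genotype and condition was replicated, so the spread behind every test is that between pairs of arrays, which may be technical.

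Erk2 is a kinase at the end of the Ras, Raf and Mek cascade that the T cell receptor switches on, and it phosphorylates transcription factors and other proteins in the activated cell. The 4 genes have unrelated products. Ptprk encodes a receptor protein tyrosine phosphatase of the cell surface that binds its own kind on neighbouring cells, and its loss in the LEC rat stops the development of CD4 T cells. Nkg7 encodes a membrane protein of the cytotoxic granules of natural killer (NK) cells and killer T cells, which in mice is needed for full degranulation. Ahcyl2 encodes a relative of S-adenosylhomocysteine hydrolase. The product of its paralogue Ahcyl1 binds the inositol trisphosphate (IP3) receptor, the channel that releases stored calcium. Exoc2 encodes the Sec5 subunit of the exocyst, which tethers secretory vesicles to the plasma membrane and is bound by the Ral GTPases.

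The promoters of the 4 genes are shown because their levels departed between the genotypes at the same time of culture. That shared time was required by the rule that chose them and is not a result. Each line gives the 250 bases before the gene's start in RefSeq on mouse build GRCm38.p6, 5′ to 3′ on the gene's strand. Where a gene has several starts (Ahcyl2 has 3 and Exoc2 has 2), the most upstream is used. The positions are chr10:28074570-28074819 on the plus strand for Ptprk, chr7:43436888-43437137 on the plus strand for Nkg7, chr6:29768193-29768442 on the plus strand for Ahcyl2 and chr13:30974048-30974297 on the minus strand for Exoc2. Capitals mark matches to 1 of 8 motifs searched on both strands.
Ptprk: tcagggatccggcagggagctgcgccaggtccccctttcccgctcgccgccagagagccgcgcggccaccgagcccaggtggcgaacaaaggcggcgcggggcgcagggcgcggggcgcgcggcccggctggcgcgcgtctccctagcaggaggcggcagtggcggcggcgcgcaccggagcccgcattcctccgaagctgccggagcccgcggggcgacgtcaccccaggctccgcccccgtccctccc
Nkg7: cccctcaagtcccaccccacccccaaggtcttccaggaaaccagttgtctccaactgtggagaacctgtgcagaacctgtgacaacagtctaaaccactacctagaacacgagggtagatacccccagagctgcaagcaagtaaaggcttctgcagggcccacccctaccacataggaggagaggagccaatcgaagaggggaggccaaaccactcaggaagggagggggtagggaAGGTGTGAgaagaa
Ahcyl2: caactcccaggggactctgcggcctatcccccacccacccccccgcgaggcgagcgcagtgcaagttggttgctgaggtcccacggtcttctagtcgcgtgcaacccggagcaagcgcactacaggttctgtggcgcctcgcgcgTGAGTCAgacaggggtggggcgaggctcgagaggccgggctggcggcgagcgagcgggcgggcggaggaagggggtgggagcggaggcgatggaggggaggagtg
Exoc2: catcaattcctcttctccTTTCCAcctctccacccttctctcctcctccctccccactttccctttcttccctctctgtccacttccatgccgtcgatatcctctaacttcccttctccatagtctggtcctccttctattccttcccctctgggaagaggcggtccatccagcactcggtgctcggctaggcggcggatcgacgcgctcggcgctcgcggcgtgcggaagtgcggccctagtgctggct
The motifs were AP-1 (TGANTCA), CRE (TGACGTCA), ETS (CCGGAAGT), T-box (AGGTGTGA), Runx (TGTGGTT), NFAT (TGGAAA), E-box (CACGTG) and KLF (GGGTGTGG), and no marked match overlaps another. The search covered the 300 bases that also include 50 after the start, and found no match in Ptprk and 1 in each of the other 3 genes. Nkg7 holds a T-box match that begins 14 bases before its start, and 1.28% of 32851 RefSeq promoters of the same length hold that motif. Ahcyl2 holds an AP-1 match 105 bases before its start, a motif in 7.81% of all promoters. Exoc2 holds an NFAT match on the opposite strand 232 bases before its start, a motif in 21.4% of all promoters. The other shares were 1.79% for CRE, 3.89% for ETS, 5.27% for Runx, 7.15% for the E-box and 3.56% for KLF. No motif was matched in more than 1 of the 4. The GC content of the same 300 bases was 75.0% in Ptprk, 71.7% in Ahcyl2, 62.0% in Exoc2 and 55.7% in Nkg7, against a median of 52.7% over all promoters. A match of letters is a description of the sequence and does not show that a factor binds there.

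Across the 16 arrays the median intensity was 62.6 to 71.1, and 12163 to 12708 probes per array were above background. Time in culture dominated the first principal component (71.7% of variance), with the Erk2-deficient day 1 iTreg array at 17.1 and the other day 1 arrays between 30.0 and 35.1. The day 0 pair went against the other pairs in genes that mark the genotypes: Gdpd3 differed by −3.48 there against 0.93 to 2.74 in the other 7 pairs, and Hba-a1, a haemoglobin gene, by 3.20 against −3.45 to −0.51. The day 0 arrays are therefore called by their labels, and changes of the genotype difference between stages are also given without them. The day 0, 3 hr and day 1 Th0 arrays were on 1 chip and the other 4 day 1 conditions on another, and WT and Erk2-deficient samples alternated in position, so genotype and position cannot be told apart. Of 10 listed CD4 T cell markers all 9 measured were above background on all 16 arrays, with Cd4 at a mean level of 7.92. Cd8b1, a CD8 T cell marker, was also above it on all 16, with a mean level of 9.76. Cd8a, also a CD8 T cell marker, was above background on no array. These markers therefore do not separate CD4 T cells from a mix with CD8 T cells.

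**Figure D1:**
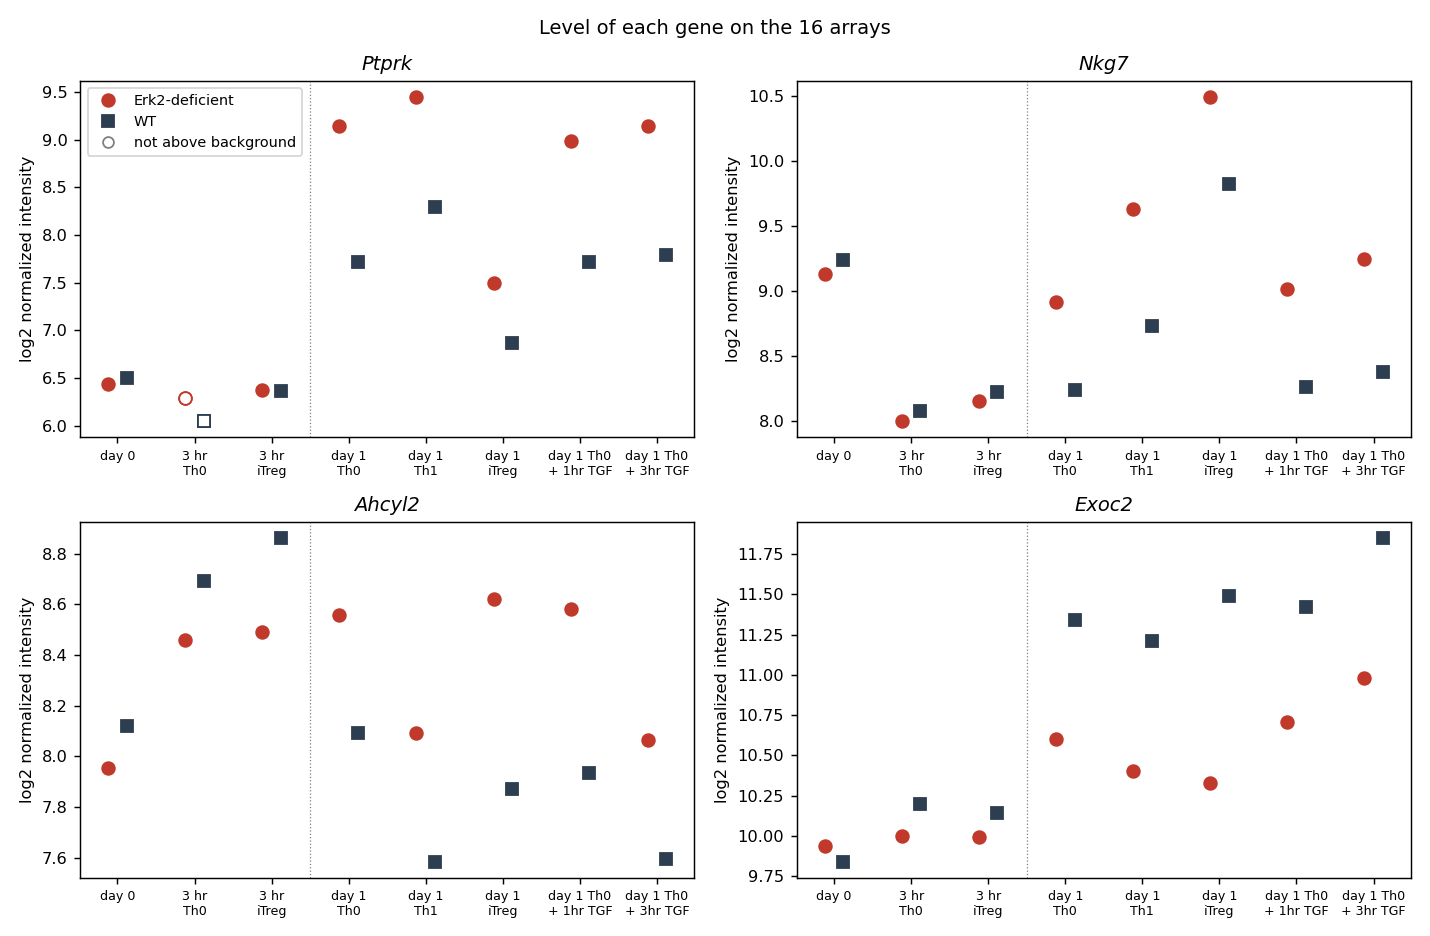
Level of each gene on the 16 arrays, as log2 normalized intensity, with Erk2-deficient arrays as circles and WT arrays as squares, and open symbols where the probe was not above background. Left of the dotted line the 2 genotypes differ by at most 0.37 in every gene, and right of it Ptprk, Nkg7 and Ahcyl2 lie higher and Exoc2 lower in the Erk2-deficient array of every pair.

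Ptprk was dim, near background, until day 1 and was brighter in both genotypes at day 1, more so in Erk2-deficient cells. Levels are log2 of normalized intensity, to which a constant of 50 was added, so that differences between dim signals are understated. On the array labelled Erk2-deficient at day 0 the Ptprk level was 6.44, followed by 6.29 at 3 hr Th0 and 6.37 at 3 hr iTreg in Erk2-deficient cells. At day 1 Erk2-deficient cells had 9.14 in Th0, 9.45 in Th1, 7.49 in iTreg, 8.98 in Th0 with 1 hr of TGF and 9.14 in Th0 with 3 hr of TGF. The WT-labelled array at day 0 had 6.50, and WT cells then had 6.05 at 3 hr Th0, 6.36 at 3 hr iTreg, 7.72 in day 1 Th0, 8.29 in Th1, 6.87 in iTreg, 7.71 with 1 hr of TGF and 7.79 with 3 hr of TGF. The day 1 iTreg array was the lowest of its genotype at day 1, and because of it the day 1 ranges of the genotypes overlap (7.49 to 9.45 in Erk2-deficient cells, 6.87 to 8.29 in WT cells). The probe was above background on 14 of 16 arrays, the exceptions being both 3 hr Th0 arrays. The other 2 Ptprk probes were above background on none, with highest intensities of 57.2 and 55.7, so the result rests on 1 probe of 3.

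Within pairs, Ptprk differed between Erk2-deficient and WT arrays by −0.06 at day 0, 0.24 at 3 hr Th0 and 0.01 at 3 hr iTreg. At day 1 it differed by 1.43 in Th0, 1.15 in Th1, 0.63 in iTreg, 1.27 with 1 hr of TGF and 1.35 with 3 hr of TGF. The mean was 1.17 ± 0.32 at day 1 (SD, n = 5 pairs), a 2.24-fold higher level in Erk2-deficient cells, and 0.06 ± 0.16 before day 1 (SD, n = 3 pairs). The difference grew by 1.10 between the stages, by 1.04 without the day 0 pair and by 1.06 with the day 0 labels exchanged. In the authors' normalized values it was 1.25 at day 1.

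The change of Ptprk with time and culture, averaged over both genotypes, was tested with limma over all kept probes, with Benjamini-Hochberg adjustment. The rule did not use this average. Yet a probe near background before day 1 gives a difference near 0 there, and a large one at day 1 needs signal. The rule thus favours a probe that rises from background, and the p-value of that rise is not independent of the choice. From 3 hr to day 1 of Th0 culture Ptprk rose by a mean of 2.26, made up of 2.85 in Erk2-deficient cells and 1.67 in WT cells (SE 0.145, limma adjusted p = 2.46e-09). As neither 3 hr Th0 array was above background, the mean of both genotypes is given as at least 4.32-fold higher at day 1. That bound is not one for each genotype, as the measured rise was 7.23-fold in Erk2-deficient and 3.17-fold in WT cells. Of all probes 54.7% passed in this comparison, so a pass alone says little. Ptprk in iTreg culture at day 1 was 3.23-fold lower than in Th1 culture (log2 difference −1.69, SE 0.145, limma adjusted p = 1.11e-06), with −1.95 in Erk2-deficient and −1.43 in WT cells. That comparison lies within 1 chip, and 10.0% of probes passed in it. Against day 1 Th0, on the other chip, Ptprk in iTreg culture was lower by 1.25 on the log2 scale (fitted difference −1.25, limma adjusted p = 3.46e-05, with 7.33% of probes passing), and in Th1 culture it differed by 0.44 without passing (limma adjusted p = 0.54). Between 3 hr and day 0 the difference was −0.20 (limma adjusted p = 0.212), in a comparison that 50.2% of probes passed. By mean of both genotypes Ptprk ran, from low to high, 6.17 at 3 hr Th0, 6.37 at 3 hr iTreg, 6.47 at day 0, 7.18 in day 1 iTreg, 8.35 with 1 hr of TGF, 8.43 in Th0, 8.47 with 3 hr of TGF and 8.87 in Th1. Only the steps up to iTreg, to 1 hr of TGF and to Th1 exceeded 2 standard errors.

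Nkg7 was above background on all 16 arrays, fell in the first hours of culture, and at day 1 was higher in Erk2-deficient cells. On the array labelled Erk2-deficient at day 0 the Nkg7 level was 9.14, followed by 8.0 at 3 hr Th0 and 8.16 at 3 hr iTreg in Erk2-deficient cells, and by 8.92 in day 1 Th0, 9.64 in Th1, 10.49 in iTreg, 9.02 with 1 hr of TGF and 9.25 with 3 hr of TGF. The WT-labelled array at day 0 had 9.24, and WT cells then had 8.08 at 3 hr Th0, 8.22 at 3 hr iTreg, 8.24 in day 1 Th0, 8.74 in Th1, 9.82 in iTreg, 8.26 with 1 hr of TGF and 8.38 with 3 hr of TGF. In both genotypes the day 1 iTreg array was the highest of all. The day 1 ranges of the genotypes overlap, with 8.92 to 10.49 in Erk2-deficient cells and 8.24 to 9.82 in WT cells.

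The Nkg7 pair differences were −0.11 at day 0, −0.08 at 3 hr Th0 and −0.06 at 3 hr iTreg, and 0.68 in day 1 Th0, 0.90 in Th1, 0.67 in iTreg, 0.76 with 1 hr of TGF and 0.87 with 3 hr of TGF. Their mean was 0.77 ± 0.11 at day 1 (SD, n = 5 pairs), 1.71-fold higher in Erk2-deficient cells, and −0.08 ± 0.02 before day 1 (SD, n = 3 pairs). This was the narrowest spread of the 4 genes at day 1, and before day 1 with the labels as given, but with the day 0 labels exchanged the earlier SD was 0.102 for Nkg7 and 0.051 for Exoc2. The change between stages was 0.86, or 0.84 without the day 0 pair and 0.78 with its labels exchanged.

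From day 0 to 3 hr Nkg7 fell, by a log2 difference of −1.07 (SE 0.0762, limma adjusted p = 1.18e-08), a 2.10-fold lower level at 3 hr. By the day 0 labels both genotypes shared it (−1.13 in Erk2-deficient and −1.16 in WT cells in Th0 culture). The day 0 pair differed by −0.11, so exchanging its labels would move each value by no more than that size. From 3 hr to day 1 of Th0 culture it rose by a mean of 0.54 (SE 0.088, limma adjusted p = 6.90e-05), made up of 0.92 in Erk2-deficient cells and 0.16 in WT cells. From 3 hr to day 1 of iTreg culture, across chips, the difference was 2.33 in Erk2-deficient cells and 1.60 in WT cells. In iTreg culture Nkg7 was 1.96-fold higher than in Th1 culture (log2 difference 0.97, SE 0.088, limma adjusted p = 2.08e-06) and 2.98-fold higher than in Th0 culture (1.58, limma adjusted p = 1.45e-08). In Th1 culture it was 1.52-fold higher than in Th0 culture (0.60, limma adjusted p = 0.00704), a comparison across chips that 0.262% of probes passed. The order of the means was 8.04 at 3 hr Th0, 8.19 at 3 hr iTreg, 8.58 in day 1 Th0, 8.64 with 1 hr of TGF, 8.81 with 3 hr of TGF, 9.186 in Th1, 9.189 at day 0 and 10.16 in iTreg. The steps to day 1 Th0, to Th1 and to iTreg exceeded 2 standard errors.

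Ahcyl2 had the reverse genotype difference before day 1, and in the cultures measured at both times its level at day 1 minus that at 3 hr was 0.10 and 0.13 in Erk2-deficient cells and −0.60 and −0.99 in WT cells. On the array labelled Erk2-deficient at day 0 the Ahcyl2 level was 7.95, followed by 8.46 at 3 hr Th0 and 8.49 at 3 hr iTreg in Erk2-deficient cells, and by 8.56 in day 1 Th0, 8.09 in Th1, 8.62 in iTreg, 8.58 with 1 hr of TGF and 8.06 with 3 hr of TGF. The WT-labelled array at day 0 had 8.12, and WT cells then had 8.69 at 3 hr Th0, 8.86 at 3 hr iTreg, 8.09 in day 1 Th0, 7.58 in Th1, 7.87 in iTreg, 7.93 with 1 hr of TGF and 7.60 with 3 hr of TGF. The highest of all 16 arrays was WT at 3 hr iTreg and the lowest WT in day 1 Th1. At day 1 the genotypes overlap by a narrow margin, with 8.06 to 8.62 in Erk2-deficient cells and 7.58 to 8.09 in WT cells.

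In pairs, Ahcyl2 differed by −0.17 at day 0, −0.24 at 3 hr Th0 and −0.37 at 3 hr iTreg, then by 0.47 in day 1 Th0, 0.51 in Th1, 0.75 in iTreg, 0.65 with 1 hr of TGF and 0.47 with 3 hr of TGF. The mean was 0.57 ± 0.13 at day 1 (SD, n = 5 pairs), 1.48-fold higher in Erk2-deficient cells, against −0.26 ± 0.10 before day 1 (SD, n = 3 pairs). It is the smallest day 1 difference of the 4 genes, and the change between stages, 0.83, is of similar size to that of Nkg7 because the earlier pairs ran the other way. Without the day 0 pair that change was 0.87, and with the day 0 labels exchanged 0.71.

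Averaged over the genotypes, Ahcyl2 rose 1.5-fold from day 0 to 3 hr (log2 difference 0.59, SE 0.0824, limma adjusted p = 1.77e-05). From 3 hr to day 1 of Th0 culture it fell by a mean difference of −0.25 (SE 0.0951, limma adjusted p = 0.0351), a call lost in 6 of 18 alternative settings. That mean joins 0.10 in Erk2-deficient cells with −0.60 in WT cells, and in iTreg culture the same step was 0.13 in Erk2-deficient and −0.99 in WT cells. In iTreg culture at day 1 the level was 1.33-fold higher than in Th1 culture (0.41, SE 0.0951, limma adjusted p = 0.0119). Against day 1 Th0, across chips, Ahcyl2 was lower in Th1 culture (−0.49, limma adjusted p = 0.0466, lost in 8 of 17 settings) and after 3 hr of TGF (−0.50, limma adjusted p = 0.0127), with −0.49 in Erk2-deficient and −0.50 in WT cells after TGF. From low to high the means were 7.83 with 3 hr of TGF, 7.84 in Th1, 8.04 at day 0, 8.25 in iTreg, 8.26 with 1 hr of TGF, 8.33 in day 1 Th0, 8.58 at 3 hr Th0 and 8.68 at 3 hr iTreg. The steps to day 0, to iTreg and to 3 hr Th0 exceeded 2 standard errors.

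Exoc2 was the only one of the 4 with a lower level in Erk2-deficient cells at day 1, and in both genotypes its level was higher at day 1 than at 3 hr. On the array labelled Erk2-deficient at day 0 the Exoc2 level was 9.94, followed by 10.00 at 3 hr Th0 and 9.99 at 3 hr iTreg in Erk2-deficient cells, and by 10.60 in day 1 Th0, 10.40 in Th1, 10.33 in iTreg, 10.71 with 1 hr of TGF and 10.98 with 3 hr of TGF. The WT-labelled array at day 0 had 9.84, and WT cells then had 10.20 at 3 hr Th0, 10.14 at 3 hr iTreg, 11.34 in day 1 Th0, 11.21 in Th1, 11.49 in iTreg, 11.42 with 1 hr of TGF and 11.85 with 3 hr of TGF. Here every Erk2-deficient array at day 1 (10.33 to 10.98) was below every WT array at day 1 (11.21 to 11.85), as in 1.48% of all kept probes, while 1.45% had every Erk2-deficient array above.

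For Exoc2 the pair differences were 0.10 at day 0, −0.20 at 3 hr Th0 and −0.14 at 3 hr iTreg, then −0.74 in day 1 Th0, −0.81 in Th1, −1.16 in iTreg, −0.71 with 1 hr of TGF and −0.87 with 3 hr of TGF. At day 1 they averaged −0.86 ± 0.18 (SD, n = 5 pairs), a 1.81-fold lower level in Erk2-deficient cells, and before day 1 they averaged −0.08 ± 0.16 (SD, n = 3 pairs). The change between stages was −0.78, or −0.69 without the day 0 pair and −0.71 with its labels exchanged. Both 3 hr pairs already had the sign of day 1.

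From 3 hr to day 1 of Th0 culture Exoc2 rose 1.83-fold on average (log2 difference 0.87, SE 0.11, limma adjusted p = 4.95e-06), made up of 0.60 in Erk2-deficient cells and 1.14 in WT cells. In iTreg culture the same step was 0.33 in Erk2-deficient and 1.35 in WT cells. Between 3 hr and day 0 it differed by 0.19 (limma adjusted p = 0.108), and between iTreg and Th1 culture by 0.10 (limma adjusted p = 0.669). After 3 hr of TGF it differed from day 1 Th0 by 0.45 (limma adjusted p = 0.0585, under the threshold in 7 of 17 alternative settings), in a comparison that 1.47% of probes passed. The order of the means was 9.89 at day 0, 10.07 at 3 hr iTreg, 10.10 at 3 hr Th0, 10.81 in Th1, 10.91 in iTreg, 10.97 in Th0, 11.06 with 1 hr of TGF and 11.42 with 3 hr of TGF. The steps to Th1 and to 3 hr of TGF exceeded 2 standard errors.

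**Figure D2:**
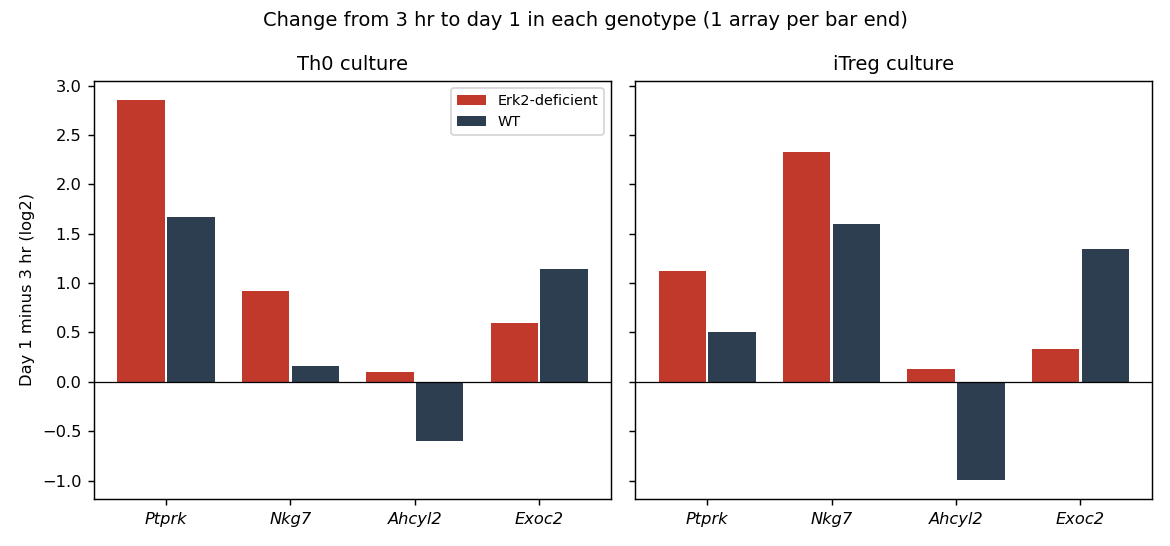
Log2 level at day 1 minus that at 3 hr, in Erk2-deficient cells (red, left bar) and WT cells (dark, right bar), in Th0 culture (left) and iTreg culture (right, where the day 1 arrays are on the other chip). Ptprk and Nkg7 have the taller bar in Erk2-deficient cells and Exoc2 in WT cells, and Ahcyl2 goes below 0 in WT cells (−0.60 and −0.99).

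Across the 4 genes, the genotype differences at day 1 had 1 sign in all 5 pairs by the rule, which 8.74% of kept probes show upward and 9.41% downward. For Nkg7 and Ahcyl2 all 3 earlier pairs also had the opposite sign, as in 1.40% of probes. The fit called 2.30% of probes higher and 1.68% lower in Erk2-deficient cells at day 1, and 0.103% for a change between the stages. By size of that change Ptprk ranked 6, Nkg7 18, Ahcyl2 21 and Exoc2 31 among 14509 probes. By size of the day 1 difference they ranked 13, 36, 87 and 27 in the same order of genes. The median absolute change was 0.84 over the 4 genes and 0.09 over all probes. In these contrasts the rule used the same values, so nothing is read from the members' places.

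**Figure D3:**
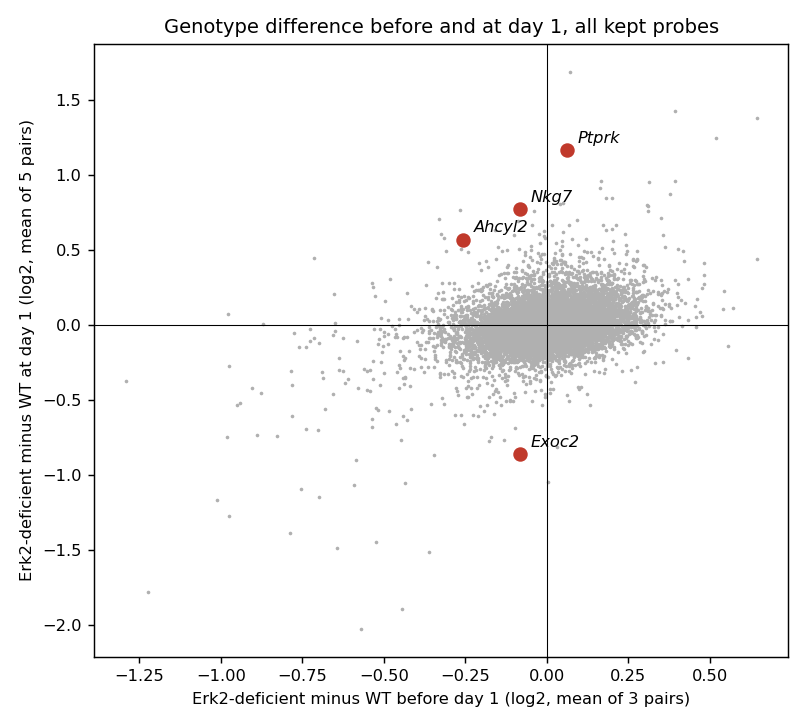
Mean Erk2-deficient minus WT difference before day 1 (x axis, log2, 3 pairs) against that at day 1 (y axis, log2, 5 pairs) for all 14509 kept probes (grey), with the 4 genes in red. They lie at the top and bottom edge of the cloud, at −0.26 to 0.06 on the x axis and at −0.86 and 0.57 to 1.17 on the y axis, where the rule placed them.

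The day 1 differences of a gene also varied between pairs. As each culture had 1 pair, an effect of culture and variation between arrays cannot be told apart. The iTreg pair, which holds the array that stood apart on the first principal component, gave the smallest difference for Ptprk (0.63 against 1.15 to 1.43 in the other 4 pairs) and the largest for Ahcyl2 (0.75) and Exoc2 (−1.16). In Nkg7 it lay next to the Th0 pair, at 0.67 and 0.68. Without the iTreg pair the mean day 1 difference was 1.30 for Ptprk, 0.80 for Nkg7, 0.52 for Ahcyl2 and −0.78 for Exoc2. Whether pairs with TGF (iTreg culture, taken to contain it, and both TGF pulses) differed from those without (Th0 and Th1) was tested with limma, and no member passed. The difference with TGF minus that without was −0.21 for Ptprk (SE 0.187), −0.02 for Nkg7 (SE 0.119), 0.14 for Ahcyl2 (SE 0.123) and −0.14 for Exoc2 (SE 0.143), each with a limma adjusted p = 1.00. In all, 0 probes passed (0%), with 383 at an unadjusted p under 0.05, so differences of more than 2 standard errors could also miss the threshold.

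**Figure D4:**
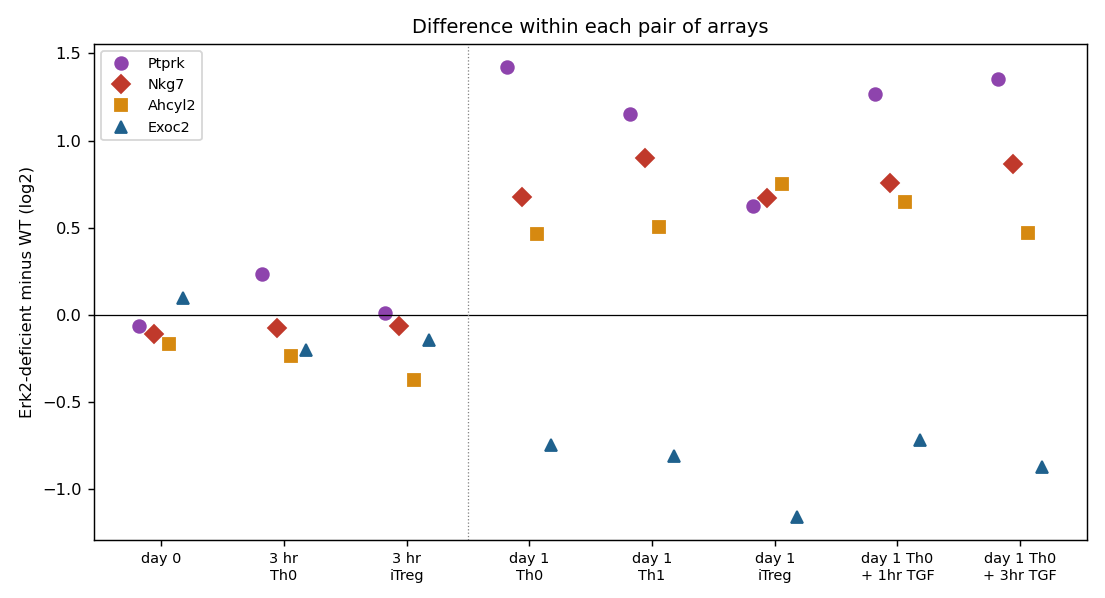
Erk2-deficient minus WT difference (log2) in each of the 8 pairs of arrays, in order of time and culture, for Ptprk (circles), Nkg7 (diamonds), Ahcyl2 (squares) and Exoc2 (triangles). Before the dotted line all values lie between −0.37 and 0.24, and after it between 0.47 and 1.43 for the first 3 genes and between −1.16 and −0.71 for Exoc2.

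After 1 hr of TGF none passed against day 1 Th0, with differences of −0.08 for Ptprk, 0.06 for Nkg7, −0.07 for Ahcyl2 and 0.09 for Exoc2, where 0.296% of probes passed. After 3 hr Ahcyl2 alone passed, as given above, and Ptprk differed by 0.04 and Nkg7 by 0.23 (limma adjusted p = 0.316). Between 3 hr and 1 hr of TGF, both on 1 chip, none passed, with −0.43 for Ahcyl2 (limma adjusted p = 0.0788) and 0.35 for Exoc2 (limma adjusted p = 0.268), where 0.255% of probes passed. At 3 hr of culture none passed between iTreg and Th0 (−0.03 to 0.20), nor did any other of the kept probes (0% by limma, 581 at an unadjusted p under 0.05). The rule favours probes whose differences vary little between pairs of a stage, and that variation is the error in all these tests, so the standard errors of the 4 genes may be too small.

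**Figure D5:**
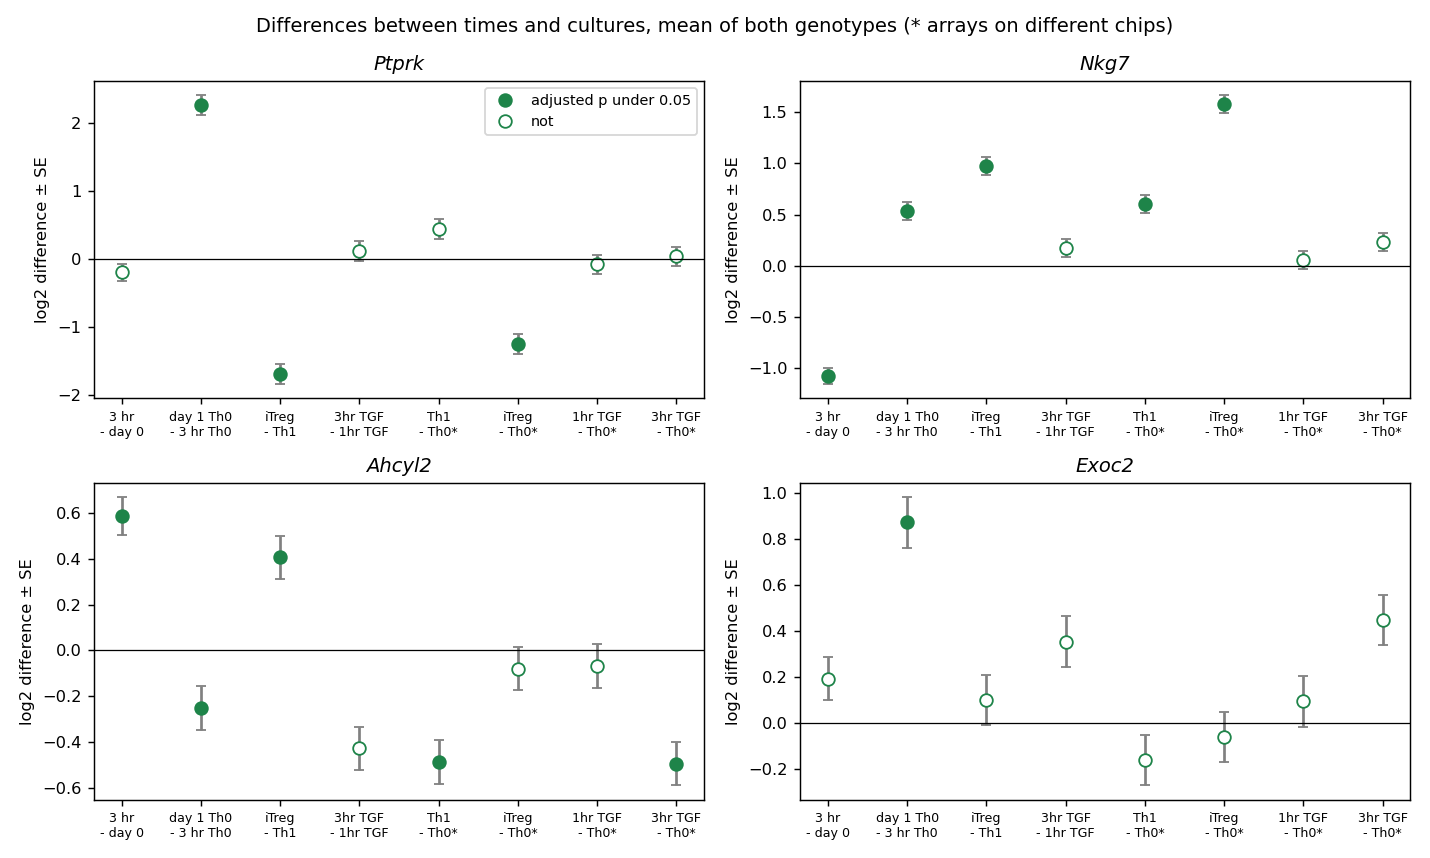
Log2 difference between times and cultures, as the mean of both genotypes with its standard error, for 8 comparisons in each gene, filled where the limma adjusted p was under 0.05 and with an asterisk where the arrays lie on different chips. The 5 largest are the rise of Ptprk in Th0 culture by day 1 (2.26), the lower Ptprk of iTreg against Th1 (−1.69) and Th0 culture (−1.25), the higher Nkg7 of iTreg against Th0 culture (1.58), and the fall of Nkg7 by 3 hr (−1.07).

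Genes related to the 4 by function were compared by lists chosen with earlier results known. Of 19 other receptor protein tyrosine phosphatases 6 were measured, and none passed for genotype at day 1, with a median difference of −0.02 against −0.003 over all probes. As 2.30% of all probes passed there as higher and 1.68% as lower, no pass in a list this short says little. The largest were Ptprs (−0.25, limma adjusted p = 0.0717) and Ptprv (−0.21). In Th0 culture from 3 hr to day 1 Ptprs and Ptprv rose (2.18 and 0.40) and Ptprc, the common leukocyte phosphatase CD45, fell (−0.82), so 2 of 6 rose and 1 fell, near the share of all probes that passed in that comparison (54.7%, with 3899 higher and 4044 lower). Against Th1, iTreg culture had higher Ptpra (0.35) and none lower, where 10.0% of all probes passed.

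Of 23 cytotoxic granule genes 17 were measured. Only Serpinb6b, a granzyme inhibitor, passed for genotype at day 1, and it was lower (−0.35, limma adjusted p = 0.00624), where 1.68% of all probes passed as lower. The list's median was −0.001 against −0.003 over all probes. Klrd1, an NK receptor chain, differed by 0.31 (limma adjusted p = 0.0801), Fasl, the death ligand, by −0.36, and the pore protein gene Prf1 by −0.30 without passing. From day 0 to 3 hr 8 of the 17 fell and 4 rose, where 3658 of the 14509 probes fell and 3620 rose (50.2% in all). Among the falls were Klrd1 (−1.30), Unc13d (−1.29), a priming factor of granule release, Rab27a (−1.25), its docking GTPase, and Prf1 (−1.22), and among the rises was Tbx21 (2.64), the Th1 lineage factor. In iTreg against Th1 culture 1 was higher, Ctsw, a protease of killer cells (3.57, limma adjusted p = 8.37e-10), and 3 were lower, Eomes (−1.03), Serpinb6b (−0.96) and Cst7 (−0.67), where 10.0% of all probes passed.

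None of the 9 measured of 14 exocyst and Ral genes passed for genotype at day 1, with differences of −0.16 (Ralb) to 0.14 (Exoc7) and a median of 0.005. Of all probes 2.30% passed there as higher and 1.68% as lower, so none of 9 is near that share. In Th0 culture from 3 hr to day 1 Exoc4, another exocyst subunit, rose by 1.36 (limma adjusted p = 2.47e-08) and Ralb by 0.31. Rala (−0.56), Exoc8 (−0.36), Exoc6 (−0.29) and Exoc3 (−0.23) fell, so 6 of 9 passed where 54.7% of all probes did. No exocyst or Ral gene passed between iTreg and Th1 culture, as was the case for Exoc2, where 10.0% of all probes passed.

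Of 13 genes of the AHCY family, the methyl cycle and the IP3 receptors 7 were measured, and none passed for genotype at day 1 (median 0.05, with Ahcyl1 at −0.22 and Itpr3 at 0.19). That too is near the share of all probes (2.30% higher and 1.68% lower). Like Ahcyl2, Ahcyl1 was higher at 3 hr than at day 0 (0.73, limma adjusted p = 3.57e-05), and so were Adk, adenosine kinase (1.82), and Mtrr (0.79), while Itpr2 (−1.45), Itpr3 (−1.26) and Mat2b (−0.49) were lower, in the comparison that 50.2% of all probes passed. By day 1 of Th0 culture Ahcy itself rose (0.90) and 5 of the 7 fell, among them Adk (−1.04), where 54.7% of all probes passed. In iTreg against Th1 culture Itpr2 was higher (0.69), where 10.0% of all probes passed. In the ERK cascade, with 7 of 14 genes measured, Rasgrp1, which activates Ras below the T cell receptor, was higher in Erk2-deficient cells at day 1 (0.53, limma adjusted p = 0.00624, in 5 of 5 pairs), and no other passed. Of all probes 2.30% passed as higher.

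Markers of other cells were read beside Nkg7, which NK cells and killer T cells express more than CD4 T cells do. Of 14 CD8 and NK cell markers 8 were measured, and their summed level at day 1 was 1283 to 1721 in Erk2-deficient and 1042 to 1940 in WT cells, higher in the Erk2-deficient array in 1 of 5 pairs. The brightest, Cd8b1, weighs most in that sum and was itself higher in 1 pair. By gene, Klrd1 and Tyrobp were higher in 5 pairs, Klrk1 and Gzma in 4, Klrb1c in 3, and Gzmm and Eomes in 2. None passed for genotype at day 1, and Tyrobp, Klrk1 and Gzma were near background. Cd8a, Ncr1, Klra1 and Fcgr3 were above background on no array, but Cd8b1 was above it on 16 of 16, with a mean level of 9.76. In iTreg culture, where Nkg7 was highest, Cd8b1 (−0.93) and Eomes (−1.03) passed as lower than in Th1 culture and none as higher. Of all probes 10.0% passed there. Against Th0 culture, across chips, Cd8b1 (−1.30) and Eomes (−0.88) passed as lower and Klrd1 (0.79) as higher, where 7.33% of all probes passed. The CD4 T cell markers summed to 22901 to 28946 in Erk2-deficient and 18299 to 22640 in WT cells at day 1, higher in 5 of 5 pairs. The brightest, Cd3d and Cd3g, weigh most in that sum and were each higher in 4 pairs. Cd3e, Cd2 and Icos were higher in 5 pairs, Cd4, Cd28 and Cd40lg in 4, and Cd247 in 2. Of the 9 measured, Cd2 (0.63) and Icos (0.42) passed, where 2.30% of all probes passed as higher. The myeloid markers (6 of 10 measured) were higher in 4 of 5 pairs, with 1845 to 2397 in Erk2-deficient and 1748 to 2038 in WT cells, but their genes differed in direction. S100a8 passed (0.71, limma adjusted p = 0.0317, higher in 4 of 5 pairs), while Lyz1 (−0.60), Lyz2 (−0.35) and Fcer1g (−0.18) were lower in 5 of 5 pairs without passing. The summed B cell markers (5 of 10 measured, 371.0 to 397.2 in Erk2-deficient and 382.9 to 409.1 in WT cells) and red cell markers (2 of 4 measured, 134.4 to 279.0 in Erk2-deficient and 359.9 to 457.1 in WT cells) were higher in 0 of 5. Single B cell genes differed in direction, with Cd22 higher in 4 pairs, Ms4a1 in 3, Ebf1 in 2, and Cd79a and Cd79b in 1. Cd79a was above background on 3 of 16 arrays, and Ms4a1 and Cd22 on 4. Of the red cell genes Hba-a1 was higher in 0 pairs and Alas2, above background on 3 arrays, in 1. The part of these markers in the differences of the 4 genes was not tested, and fewer cells of a type and less RNA per cell cannot be told apart in bulk samples.

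The genes most like each member were found by Pearson's r, as a description over arrays that share time, chip and genotype. Over the 16 levels the closest were Mgarp (r = 0.96), Fadd (0.95) and Klhl5 (0.94) for Ptprk, Osm (0.94), Pqlc3 (0.92) and Lgals1 (0.87) for Nkg7, H13 (0.91), Capzb (0.86) and Samhd1 (0.86) for Ahcyl2, and Batf3 (0.97), Igf2bp3 (0.95) and Crabp2 (0.93) for Exoc2. None of the 4 was among the closest genes of another by level. Over the 8 pair differences, among probes whose pair differences had an SD of at least 0.25, the closest were Ccr8 (0.96), Asb2 (0.96) and Lif (0.92) for Ptprk, Gata3 (0.97), Ahcyl2 (0.93) and Ptprk (0.92) for Nkg7, Ppp3ca (0.98), Gata3 (0.95) and Themis (0.94) for Ahcyl2, and Polk (0.98), Mdfic (0.95) and Dyrk3 (0.93) for Exoc2. Gata3, which sets the Th2 lineage, was thus close to both Nkg7 and Ahcyl2, though its difference before day 1 was 0.31, against −0.08 and −0.26 in them. The rule required a step in these pair differences between the stages, so a probe with such a step tends to a high r with any member. Nothing is therefore read from a gene that was close to more than 1 of them. Between the 4 genes themselves r over the 8 pair differences was 0.81 to 0.93 among Ptprk, Nkg7 and Ahcyl2 and −0.93 to −0.76 with Exoc2, a step between 2 stages that the rule required. Over the 16 levels it was −0.65 to 0.43.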

How the data were processed

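RNA of 16 CD4 T cell samples was extracted and labelled with biotin, per the labels' protocols. The deposited table holds probe intensity on a linear scale, not normalized, with no detection p-values, and the series matrix holds intensity that the authors normalized in a way the labels do not state. Each array correlated best with its own column of the series matrix. With limma 3.58.1 (R 4.3.3), intensities went through normexp background correction with an offset of 50, quantile normalization and log2. Above background means brighter than the 99th percentile of a normal distribution centred on the array's mode. Kept probes were above it on at least 2 arrays. A gene is represented by its kept probe with the highest mean.

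The fit had a mean for each of 8 conditions and a genotype term for each stage, before day 1 and at day 1. Condition comparisons were contrasts of the means, and a further fit divided the day 1 genotype term by TGF. The tests used lmFit and eBayes, and p-values were adjusted by Benjamini-Hochberg across the kept probes, with 0.05 as the threshold. The procedure was tested on simulated data. Members, gene lists and named genes were chosen with earlier results of these data known. The number of arrays limits the precision. The alternatives were other background corrections, normalizations, filters and models, the series matrix values, each pair left out, each chip alone, and the day 0 labels exchanged. Promoters came from RefSeq, GRCm38.p6, with all 4 genes matched by symbol. Protein sequences were not used here, and a check of the targeted gene is not reported here.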

Additional observations from a re-analysis of the deposited data

Results flagged for a closer look

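For Nkg7 the genotype difference at day 1 minus that before day 1 was 0.86, and for Ahcyl2 it was 0.83. In both genes every day 1 pair was higher in Erk2-deficient cells (0.67 to 0.90 for Nkg7, 0.47 to 0.75 for Ahcyl2) and every earlier pair was lower (−0.11 to −0.06 for Nkg7, −0.37 to −0.17 for Ahcyl2). The difference was not tested, since these values chose the genes. With the day 0 labels exchanged the day 0 pair would have the sign of day 1 in both.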

How the results depend on the processing

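Over the alternatives the mean day 1 genotype difference kept its sign in all 4 genes (1.10 to 1.43 for Ptprk, 0.68 to 0.83 for Nkg7, 0.47 to 0.65 for Ahcyl2, −0.89 to −0.74 for Exoc2), and leaving out 1 pair gave 1.10 to 1.30, 0.74 to 0.80, 0.52 to 0.59 and −0.89 to −0.78 for the same genes. Before day 1 the Nkg7 mean was −0.11 in the series matrix values and −0.011 with the day 0 labels exchanged, which also put Ahcyl2 at −0.15. Of the tests of single genes, 670 kept direction and side of the threshold, 18 lost the call, 11 gained one and 5 changed sign, none of the 5 a called value: under median scaling Ahcyl2 at 3 hr iTreg against 3 hr Th0 (−0.010) and Exoc2 in iTreg against Th1 (−0.048), and, in the split by TGF, Nkg7 without the Th1 pair (0.087) or the iTreg pair (0.024) and Ptprk without the iTreg pair (0.022). In that split leaving out 1 pair gave −0.34 to 0.022 for Ptprk and −0.13 to 0.087 for Nkg7. The Ptprk rise in Th0 culture was 3.02 with an offset of 16, against 2.26, by construction, since the offset damps dim signals. With 1 genotype term for all stages, Nkg7 and Ahcyl2 lost their calls in Th0 culture from 3 hr to day 1 (2 of 4 members called), Nkg7 and Ahcyl2 in Th1 against Th0 (0 members, 16 probes), Ahcyl2 in iTreg against Th1 and Ahcyl2 after 3 hr of TGF (0 members), by construction, since the stage difference then enters the error. In Th1 against Th0, 38 probes and 2 members passed, but 175 probes with array weights, and 1 member with offset 16, median scaling, a filter at 8 arrays or day 0 labels exchanged. Leaving out 1 pair there gave 20 to 100 probes and 1 to 3 members. For 3 hr against 1 hr of TGF 37 probes and 0 members passed, but 19 probes with offset 16, 23 with median scaling, and 185 probes and 1 member with array weights, and 26 to 133 probes and 0 to 1 members without 1 pair. For 3 hr of TGF against Th0 214 probes and 1 member passed, but 138 probes with offset 16, 554 with array weights, and 2 members with cyclic loess, series matrix values, array weights, the trended robust prior or day 0 labels exchanged, and 167 to 408 probes and 1 to 2 members without 1 pair. For 1 hr of TGF against Th0 43 probes passed, but 92 with array weights and 36 to 69 without 1 pair. The highest of these ranges came without the iTreg pair, and array weights gave that pair the lowest weight (0.49). The causes of the other moves were not tested. No paired analysis by replicate number was possible because the labels give none, and the genotype terms already compare the 2 arrays of each condition. Chip 1 or chip 2 alone was fitted only for contrasts within that chip. Ptprk before day 1 lies near background, which limits what its earlier differences can show.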
